A study of Homo sapiens with 2 samples.

Results

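The transcripts described here encode kallikreins, membrane-bound and other trypsin-like serine proteases, the serpins that inhibit such proteases, and the urokinase system. They were chosen by gene symbol from the platform's probe annotation: the KLK, TMPRSS, PRSS and SERPIN families with ST14, HPN, SPINT1, SPINT2, PLAU, PLAUR and PLAT. The rule found 99 probes for 91 genes, of 24459 gene probes and 18638 named genes in all. By family these were 15 kallikreins, 17 transmembrane serine proteases (TMPRSS genes, ST14 and HPN), 22 PRSS genes, 32 serpins, 2 Kunitz inhibitors and 3 genes of plasminogen activation.

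The study asked which transcripts differ when CDR1AS, a circular RNA that binds the microRNA miR-7, is expressed in colon cancer cells. RNA of SW620 cells expressing CDR1AS was hybridised to 1 array and RNA of SW620 cells with control lentiviruses to another. SW620 is an established cell line grown from a metastatic colon carcinoma, and both cultures were grown in serum-containing DMEM without further treatment. The labels do not say whether the CDR1AS cells were a clone or a pool, and no probe used here reports the circular RNA. Since each group was measured on 1 array, no replicate error or test could be had, and each difference is one between 2 arrays.

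Serine proteases of this kind are made as inactive precursors and are switched on by cleavage, often by one another. Urokinase, bound to its receptor on the cell surface, turns plasminogen into plasmin, which degrades fibrin and matrix proteins. Serpins trap their target protease in a covalent complex, while Kunitz inhibitors block the active site reversibly. In epithelia, matriptase and its Kunitz inhibitors act on junctions and on the hepatocyte growth factor pathway. Transcript levels alone do not give protease activity, which was not analysed here.

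The CDR1AS array had more PLAU, PLAUR, SERPINE2 and PRSS23 signal and less KLK10, KLK11, KLK1 and SERPINA1 signal than the control array. PLAU was 4.10-fold higher and KLK10 4.69-fold lower. When the scanner's local background beside each spot was subtracted, only KLK10 of these 8 stayed past 2-fold, and KLK11 (0.10 on the log2 scale) and SERPINA1 (0.67) changed direction. The other members differed by less than 2-fold, with ST14, at 1.99-fold lower, just inside that limit and PLAUR, at 2.07-fold higher, just outside it. In bulk RNA, fewer cells that make a transcript and less of it per cell cannot be told apart.

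A probe counted as above background where its spot was over 2 SD brighter than the average blank spot, which placed the limit at 72.1 on the CDR1AS array and 69.1 on the control array. Each gene was read from its brightest probe. Of the 91 genes, 73 passed this limit on both arrays and 15 on neither, while 2 passed it on the CDR1AS array alone and 1 on the control array alone. The 15 were 7 serpins (SERPINA4, SERPINA11, SERPINB3, SERPINB13, SERPINE3, SERPING1 and SERPINI2), 5 TMPRSS genes (TMPRSS6, TMPRSS7, TMPRSS11BNL, TMPRSS11D and TMPRSS11F) and PRSS35, PRSS41 and PRSS48. Many of the 76 measured members were dim: 21 had spots under 1.2 times the limit on both arrays. The 4 kinds of negative-control probe averaged 69.9 to 72.2 on the CDR1AS array and 66.0 to 68.2 on the control array, so spots just over the limit are hardly brighter than those controls.

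Ratios are of CDR1AS over control on a log2 scale, after normexp correction with an offset of 50 and quantile normalization. The offset compresses the folds of dim genes towards 1, so the authors' deposited values are given beside them for the main genes. At or past 2-fold, 4 of 76 members were higher, and over all 16685 measured genes 126 were (0.755%). Another 4 members were at least 2-fold lower, against 96 of all genes (0.575%). Taken both ways that is 10.5% of the members and 1.33% of all genes. These shares were 6.58% and 7.77% with the local background subtracted, so the members' share was then not the larger one. The middle of the distribution was close to that of all genes: the members' median log2 ratio was −0.04 with quartiles of −0.17 and 0.06, and the median of all genes was −0.01 with quartiles of −0.10 and 0.09.

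**Figure D1:**
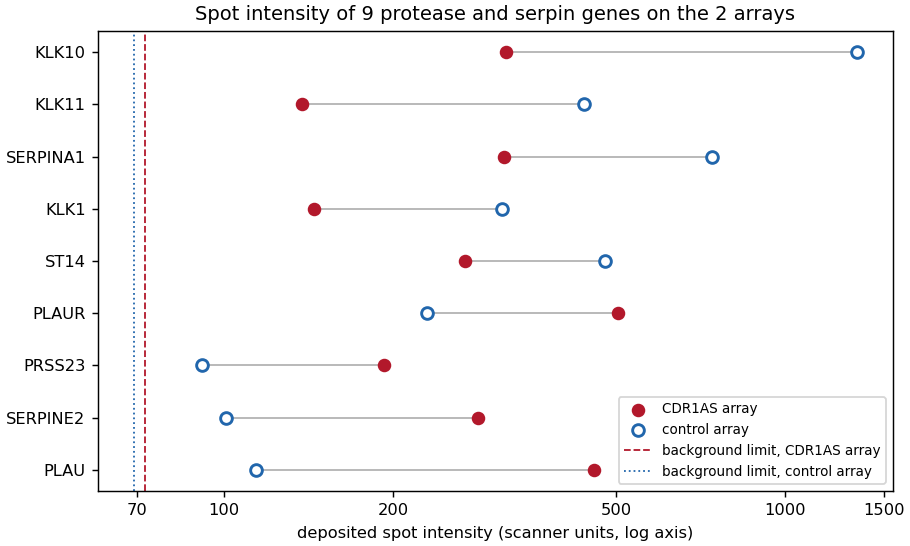
Deposited spot intensity on a log axis for the 8 members past 2-fold and ST14, with filled points for the CDR1AS array, open points for the control array and a vertical line at the background limit of each array. The 5 upper genes are brighter on the control array and the 4 lower genes on the CDR1AS array, and all 18 spots lie above their limits.

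**Figure D2:**
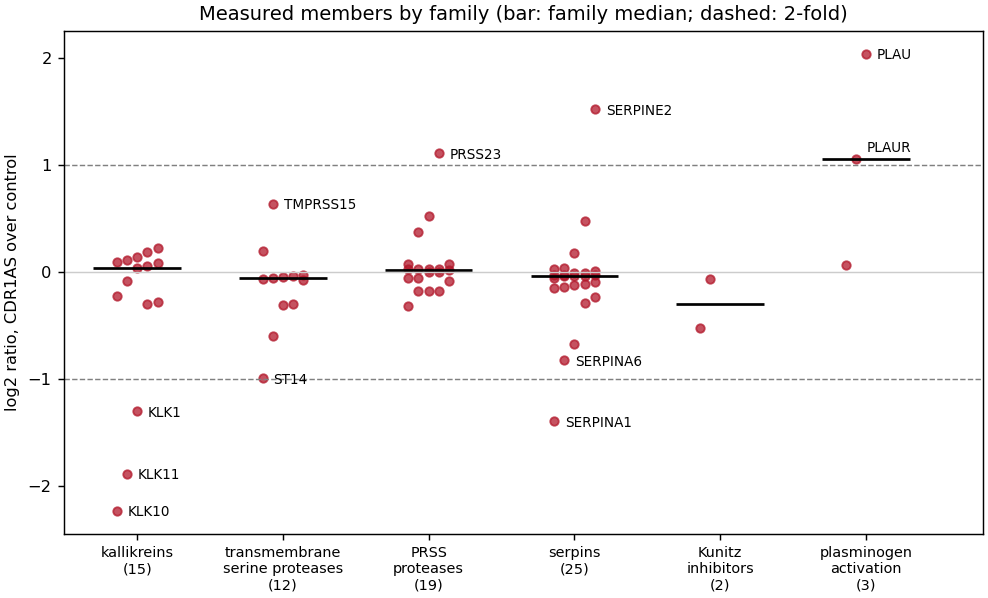
Log2 ratio, CDR1AS over control, of the 76 measured members by family, each point 1 gene on 1 pair of arrays, with a bar at the family median and dashed lines at 2-fold. Most members lie close to 0, and the 8 genes past 2-fold belong to the kallikreins, the PRSS proteases, the serpins and plasminogen activation.

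The promoters of 5 genes are shown because these genes carry the main differences: PLAU, PLAUR and SERPINE2 encode a protease, its receptor and an inhibitor that were higher together, and KLK10 and KLK11 are neighbours that were lower together. Each runs from 250 bases before to 50 bases after the gene's start in RefSeq (GRCh38.p14), 5′ to 3′ on the gene's strand. Capitals mark matches, on either strand, to TATAAA, to the AP-1 motif TGANTCA, to the kappaB motif or to CCAAT.
PLAU (chr10:73910360-73910659, plus strand): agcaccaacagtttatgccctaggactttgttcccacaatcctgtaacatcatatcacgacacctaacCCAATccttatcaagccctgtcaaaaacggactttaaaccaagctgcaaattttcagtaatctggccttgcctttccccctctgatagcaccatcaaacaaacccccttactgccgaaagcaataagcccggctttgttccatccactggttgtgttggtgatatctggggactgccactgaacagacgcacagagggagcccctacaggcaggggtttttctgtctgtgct
PLAUR (chr19:43670120-43670419, minus strand): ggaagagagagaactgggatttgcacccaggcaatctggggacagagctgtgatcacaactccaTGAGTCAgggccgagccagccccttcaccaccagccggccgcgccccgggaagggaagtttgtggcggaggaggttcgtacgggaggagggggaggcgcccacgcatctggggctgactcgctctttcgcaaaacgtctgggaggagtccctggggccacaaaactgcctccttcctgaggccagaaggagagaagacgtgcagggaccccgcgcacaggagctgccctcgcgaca
SERPINE2 (chr2:224031429-224031728, minus strand): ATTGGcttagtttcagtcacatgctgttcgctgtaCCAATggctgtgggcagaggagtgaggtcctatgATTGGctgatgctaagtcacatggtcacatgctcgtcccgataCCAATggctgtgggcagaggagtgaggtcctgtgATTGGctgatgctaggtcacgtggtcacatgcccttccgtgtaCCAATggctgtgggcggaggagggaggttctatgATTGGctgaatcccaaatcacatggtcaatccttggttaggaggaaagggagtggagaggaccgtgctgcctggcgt
KLK10 (chr19:51019812-51020111, minus strand): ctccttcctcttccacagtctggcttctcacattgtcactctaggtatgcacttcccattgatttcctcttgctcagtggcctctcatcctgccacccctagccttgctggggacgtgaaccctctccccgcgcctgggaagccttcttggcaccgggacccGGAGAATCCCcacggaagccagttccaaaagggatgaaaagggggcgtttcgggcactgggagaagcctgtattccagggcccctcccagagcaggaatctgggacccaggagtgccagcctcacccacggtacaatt
KLK11 (chr19:51027597-51027896, minus strand): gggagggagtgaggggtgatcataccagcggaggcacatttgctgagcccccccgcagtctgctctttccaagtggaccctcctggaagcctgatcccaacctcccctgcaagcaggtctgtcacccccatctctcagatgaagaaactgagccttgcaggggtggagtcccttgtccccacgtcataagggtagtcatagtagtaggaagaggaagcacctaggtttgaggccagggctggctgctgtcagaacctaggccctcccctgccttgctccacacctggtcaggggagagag

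No motif of the 4 searched was in all 5 windows. The PLAUR window held 1 AP-1 match, TGAGTCA, 186 bases before the start, and the KLK10 window held 1 kappaB match on the opposite strand, 88 bases before it. The PLAU window held 1 CCAAT match. The SERPINE2 window held 7 matches to CCAAT, in a repeated stretch, a count reached by 7 of 27305 promoters of the same length (0.0256%). Over all these promoters, 7.76% held the AP-1 motif, 10.8% the kappaB motif, 35.7% CCAAT, and TATAAA was in 3264 of them. None of the 4 was found in the KLK11 window, and TATAAA was in none of the 5. Matches overlapped no other match.

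The urokinase system was higher on the CDR1AS array by its protease and its receptor, while the other activator differed little. PLAU, which encodes urokinase, had a spot intensity of 456 on the CDR1AS array and 114 on the control array, a log2 ratio of 2.03. In the authors' deposited table its value was 177 for CDR1AS and 22.9 for control, which is 7.73-fold higher. Its dimmer probe had 159 on the CDR1AS array and 81.8 on the control array, 1.99-fold higher. Both PLAU probes were therefore brighter with CDR1AS, by different amounts. PLAUR, the lipid-anchored receptor that holds urokinase at the cell surface, had 503 on the CDR1AS array and 230 on the control array (log2 ratio 1.05). PLAT, which encodes tissue plasminogen activator, had 245 on the CDR1AS array and 218 on the control array (0.07), and its other probe was not above background on either array.

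Of the serpins described here that act on plasminogen activators or plasmin, SERPINE2 was past 2-fold, and SERPINI1, SERPINF2 and SERPINA5 were within it. SERPINE2 encodes protease nexin-1, an inhibitor of thrombin, urokinase and tissue plasminogen activator. Its spot was 284 on the CDR1AS array and 101 on the control array, 2.87-fold higher (1.52), and 5.87-fold higher in the authors' deposited table. SERPINI1, which encodes neuroserpin, an inhibitor of tissue plasminogen activator, had 343 on the CDR1AS array and 350 on the control array (−0.14). SERPINF2, which encodes the plasmin inhibitor alpha-2-antiplasmin, had 106 on the CDR1AS array and 108 on the control array (−0.12).

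Of 16 listed genes for plasminogen receptors, its clearance and its partners, 14 were measured, with 6 above 0, 8 below and none past 2-fold. Their median was −0.04, beside −0.01 for all genes. ANXA2 and S100A10, whose products form a plasminogen-binding complex, had log2 ratios of 0.35 and 0.31. ITGAV, an integrin subunit that binds vitronectin, had 0.47, and LRPAP1, the chaperone of the receptors that clear protease-serpin complexes, had 0.46. SORL1, one such receptor, had −0.59. With the local background subtracted S100A10 (5.03), ENO1 (3.60) and ANXA2 (1.61) were past 2-fold and LRPAP1 turned to −0.20. PLG, which encodes plasminogen itself, was close to background, at 91.7 on the CDR1AS array and 90.2 on the control array.

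Kallikreins are secreted serine proteases encoded by a row of neighbouring genes on chromosome 19. Of the 15 genes, 3 were at least 2-fold lower on the CDR1AS array, beside 0.575% of all genes, and none was 2-fold higher. Another 8 were slightly above 0, so the family median was 0.04. With the local background subtracted 1 of the 15 was 2-fold lower, beside 3.28% of all genes. In that setting 11 of the 15 were below 0, beside 56.2% of all genes. KLK10 had a spot of 318 on the CDR1AS array and 1341 on the control array (log2 ratio −2.23), and the authors' deposited table gave it a 5.35-fold lower value. KLK11, a trypsin-like kallikrein, had 138 on the CDR1AS array and 437 on the control array (−1.88). In the deposited table it was 5.65-fold lower, and with the local background subtracted its ratio turned to 0.10. KLK1 is tissue kallikrein, which releases kinins from kininogen. It had 144 on the CDR1AS array and 313 on the control array (−1.30), 2.46-fold lower, and −0.40 with the local background subtracted. All 3 genes were above background on both arrays.

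The other kallikreins lay within 0.30 of 0 on the log2 scale, and most were dim. KLK6, which was well above background, had 417 on the CDR1AS array and 463 on the control array (−0.28). KLK9 had 252 on the CDR1AS array and 203 on the control array (0.22). KLK12 (0.09) and KLK3 (−0.22), the gene of prostate-specific antigen, were similar on both arrays. KLK7, a chymotrypsin-like kallikrein of the skin, gave 0.11 and 0.12 with its probes. KLK13 was above background on the control array only, with 80.7 there and 70.2 on the CDR1AS array, at least 1.23-fold lower. The remaining 6 kallikreins had spots under 1.5 times the limit on both arrays.

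Along the chromosome, KLK10 and KLK11 are adjacent, and their neighbours on either side, KLK9 (0.22) and KLK12 (0.09), were not lower. KLK1 stands at the other end of the row, between ACP4 (−0.10) and KLK15 (0.06). Past 2-fold, a difference was seen in 1 adjacent pair and 1 separate gene. Many of the other genes of the row were close to the limit, where a lower level could hardly show. Whether the whole row differed could therefore not be told.

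**Figure D3:**
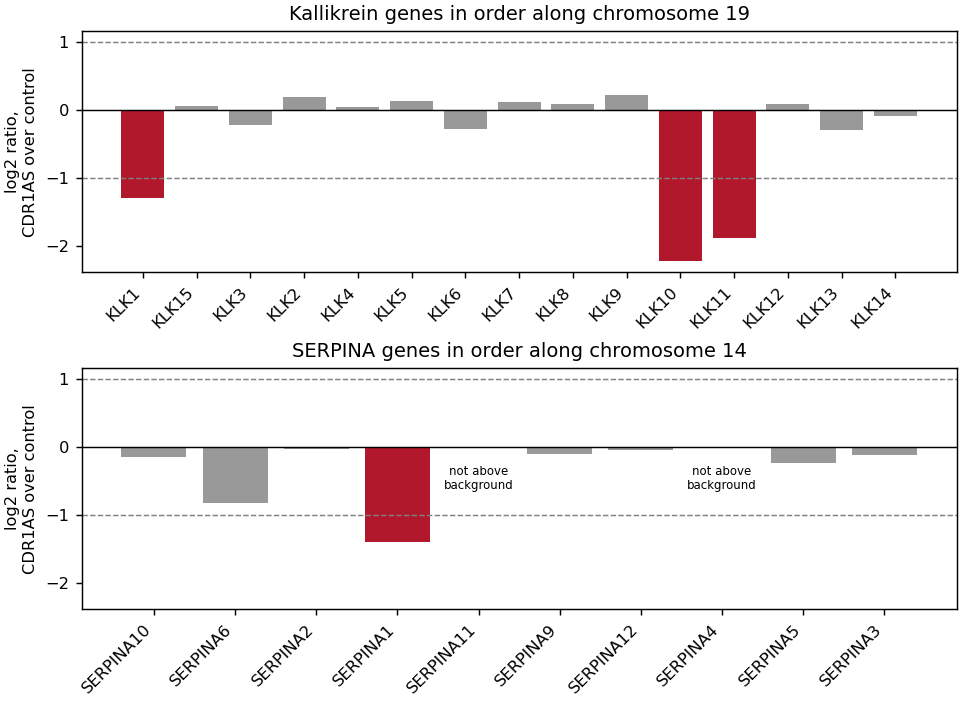
Log2 ratio, CDR1AS over control, of kallikrein genes in their order on chromosome 19 (upper panel) and of SERPINA genes on chromosome 14 (lower panel), with red bars at or past 2-fold and dashed lines at 2-fold. KLK10 and KLK11 stand side by side at −2.23 and −1.88 between neighbours near 0, and SERPINA1 and SERPINA6 are separated by SERPINA2 at −0.03.

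Transmembrane serine proteases had ratios mostly below 0, many of them close to 0, and none of the 12 measured was past 2-fold. ST14, which encodes matriptase, had 268 on the CDR1AS array and 477 on the control array (log2 ratio −0.99). It passed 2-fold in the authors' deposited table, at 2.16-fold lower, and with an offset of 16 (−1.11). TMPRSS3 had 203 on the CDR1AS array and 278 on the control array (−0.60). HPN, which encodes hepsin, was dim, with 84.9 on the CDR1AS array and 96.1 on the control array (−0.31), and was 2.04-fold lower in the deposited table. TMPRSS11E had 328 on the CDR1AS array and 371 on the control array (−0.30).

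A pair of genes in the same family had higher signal on the CDR1AS array. TMPRSS15, which encodes enteropeptidase, the activator of trypsinogen, had 492 on the CDR1AS array and 296 on the control array (0.64). TMPRSS4 had 582 on the CDR1AS array and 467 on the control array (0.20). Altogether 10 of the 12 were below 0, with a median of −0.06, while 52.7% of all genes were below 0. With 1 array per group the error of the family median could not be had. The log2 SDs of repeated positive-control spots (0.10 to 0.24) are of bright spots within an array and do not measure it.

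Matriptase is held in check by a pair of Kunitz inhibitors. SPINT1, which encodes the inhibitor HAI-1, had 216 on the CDR1AS array and 210 on the control array (−0.07). SPINT2, which encodes HAI-2, had 2913 on the CDR1AS array and 3884 on the control array (−0.52, and −1.02 with the local background subtracted). PRSS8, which encodes prostasin, a protease that acts together with matriptase, had 112 on the CDR1AS array and 109 on the control array (−0.06). EPCAM, an adhesion protein that matriptase cleaves, had −0.54, and its other probe −0.76, but 2.13 with the local background subtracted. MET, the receptor of hepatocyte growth factor, had 0.50.

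Of 18 listed protease-activated receptors and protease substrates, 16 were measured and 1 was past 2-fold, beside 1.33% of all genes either way. This was F2RL3, which encodes the thrombin receptor PAR4, with 324 on the CDR1AS array and 131 on the control array (1.29, and 0.9991 with the local background subtracted). F2R, which encodes PAR1, was above background on the CDR1AS array only, with a spot of 84.0 there and 67.2 on the control array. The median of the list was 0.03, with 9 genes above 0 and 7 below.

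Among the PRSS genes, only PRSS23, a secreted serine protease, was past 2-fold. It had a spot of 193 on the CDR1AS array and 91.2 on the control array (log2 ratio 1.11), and in the authors' deposited table it was 4.67-fold higher. The trypsinogen spots were also brighter on the CDR1AS array. PRSS2 had 1013 on the CDR1AS array and 650 on the control array (0.52), and PRSS3 had 1003 on the CDR1AS array and 712 on the control array (0.37). With the local background subtracted PRSS2 had 2.59 and PRSS3 −0.02. The trypsinogen genes are near-identical copies, and which of them each probe detects was not tested.

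The rest of the 19 measured PRSS genes ranged from −0.32 for PRSS12, which encodes neurotrypsin, to 0.08 for PRSS36, and the family median was 0.02. PRSS56 had −0.18, PRSS27 had −0.18 and PRSS16, a thymus protease, had −0.17 and −0.03 with its probes. PRSS50 and PRSS55 were above background on the CDR1AS array only. They were at least 1.02-fold and at least 1.05-fold higher there. Their spots on that array were only 1.03 and 1.06 times the limit, where folds are poorly determined.

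Serpins were mostly close to equal on the arrays, with SERPINE2 and SERPINA1 past 2-fold in opposite directions. Their median was −0.04 with quartiles of −0.14 and −0.01. Of the 25 measured serpins 19 lay below 0, beside 52.7% of all genes. After subtraction of the local background 14 of the 25 did, beside 56.2% of all genes. SERPINA1 encodes alpha-1-antitrypsin, the plasma inhibitor of neutrophil elastase. Its spot was 316 on the CDR1AS array and 741 on the control array, 2.63-fold lower (−1.39), and 2.85-fold lower in the authors' deposited table. With the local background subtracted its ratio turned to 0.67.

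All 9 measured clade A serpins were below 0, from −0.03 to −1.39, most of them close to background, while 52.7% of all genes were below 0. After subtraction of the local background 3 of the 9 were above 0. SERPINA6, which encodes the hormone carrier corticosteroid-binding globulin, had 87.0 on the CDR1AS array and 135 on the control array (−0.83). It was 4.11-fold lower in the deposited table. SERPINA5 encodes the protein C inhibitor, which also inhibits urokinase, and had −0.24, and SERPINA3, the antichymotrypsin gene, was at the limit on the CDR1AS array with 72.5 and had 72.9 on the control array. SERPINA1 and SERPINA6 lie in one row of genes on chromosome 14, and the 8 members measured there had a median of −0.13.

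Among the intracellular clade B serpins none was past 2-fold. SERPINB1, an inhibitor of neutrophil proteases, had 567 on the CDR1AS array and 822 on the control array (−0.67). SERPINB9, the granzyme B inhibitor gene, was dim, with 91.9 on the CDR1AS array and 103 on the control array (−0.29). SERPINB7 had 409 on the CDR1AS array and 372 on the control array (0.03). SERPINB5, which encodes maspin, was near background, with 77.4 on the CDR1AS array and 74.6 on the control array (−0.03). The 7 measured clade B genes in the row on chromosome 18 ranged from −0.06 to 0.04.

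SERPINF1 and SERPINH1, serpins that do not inhibit proteases, had ratios above 0. SERPINF1 encodes pigment epithelium-derived factor and had 720 on the CDR1AS array and 475 on the control array (0.48), but −1.48 with the local background subtracted. SERPINH1, the collagen chaperone gene, had 390 on the CDR1AS array and 322 on the control array (0.18). SERPINC1 (0.01) and SERPIND1 (−0.03), the genes of antithrombin and heparin cofactor II, were both under 1.5 times the limit on the arrays.

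**Figure D4:**
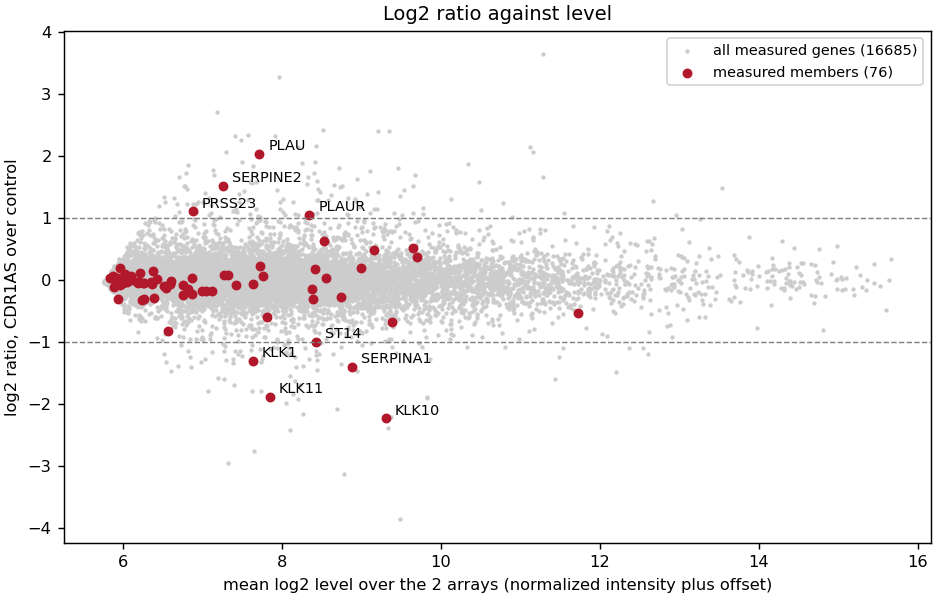
Log2 ratio, CDR1AS over control, against the mean log2 level over both arrays for all 16685 measured genes (grey) and the 76 measured members (red), with dashed lines at 2-fold. The 8 members past 2-fold lie beyond the dashed lines, and most of the dim members at the left lie close to 0.

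Other inhibitors and serine proteases outside these families were compared from fixed lists. Of 13 measured inhibitors 2 were at least 2-fold lower, beside 0.575% of all genes. SLPI, a secreted inhibitor of leukocyte elastase, had 198 on the CDR1AS array and 410 on the control array (−1.21). A2M, which encodes the broad inhibitor alpha-2-macroglobulin, had 101 on the CDR1AS array and 209 on the control array (−1.27). Of 26 measured other serine proteases 1 was past 2-fold either way, beside 1.33% of all genes. This was CFD, which encodes complement factor D, with 136 on the CDR1AS array and 278 on the control array (−1.23). The medians of the lists were −0.01 and −0.04. With the local background subtracted none of the 3 was past 2-fold: SLPI had −0.86, A2M −0.35 and CFD −0.12.

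Markers of other cell types were set beside these values. Of 10 measured colon epithelial markers none was past 2-fold, although EPCAM (2.13) and KRT19 (2.03) were with the local background subtracted, and their net intensities above the blanks summed to 66986 on the CDR1AS array and 71492 on the control array. KRT18 and EPCAM were bright on both arrays, while CDX1, CDH17 and KRT20 were under 1.5 times the limit. Of 6 hepatocyte markers, which bear on the plasma serpins, 4 were measured, and the net intensities summed to 122 on the CDR1AS array and 1232 on the control array. Nearly all of that was ALB, at 168 on the CDR1AS array and 1279 on the control array (−3.14). APOB and AHSG were not above background on either array, and APOA1, TTR and TF were under 1.1 times the limit. The summed net intensity of 6 squamous markers, of which 5 are on the array, was 696 on the CDR1AS array and 569 on the control array, with none past 2-fold. The fibroblast, endothelial, leukocyte, prostate and pancreatic lists also had none past 2-fold. Their summed net intensities were 372, 179, 69.9, 20.4 and 87.0 on the CDR1AS array, against 382, 150, 76.8, 17.3 and 92.3 on the control array. COL1A1, COL3A1 and PTPRC were not above background on either array. Other markers on the same lists were: DCN, LUM and PDGFRB of the fibroblast list were over 2 times the limit on both arrays. CD14 of the leukocyte list had 120 on the CDR1AS array and 122 on the control array. The part of other cell types in the results was not tested.

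The counts past 2-fold moved with the processing, among the members and among all genes. Percentages in brackets are the shares of all genes past 2-fold in the same setting and direction. An offset of 16 gave 4 members higher (1.37% of all genes) and 6 lower (1.03%), the added ones being ST14 and SERPINA6 (−1.32). The authors' deposited table gave 6 higher (3.35% of all genes) and 9 lower (2.27%). The members it added were KLK2 and PRSS55 on the higher side and ST14, SERPINA6, HPN, PRSS12 and SERPINA3 on the lower, most of them dim. A filter that asked for 2 times the limit on both arrays left 1 member higher (1.01% of all genes) and 3 lower (0.879%). With the local background subtracted 2 members were higher (4.48% of all genes) and 3 lower (3.28%). These were PRSS2 (2.59) and TMPRSS15 (1.07) on the higher side and KLK10 (−1.73), SERPINF1 (−1.48) and SPINT2 (−1.02) on the lower. Taken both ways, 6.58% of the members and 7.77% of all genes were past 2-fold in this setting.

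The choice of background had the widest effect on these genes. The local background column rose with the brightness of the spot itself (Pearson's r across probes on the log scale 0.942 on the CDR1AS array and 0.977 on the control array, where probes are not independent replicates). After it was subtracted, KLK10 remained past 2-fold (−1.73), while PLAU (0.94), SERPINE2 (0.96), PLAUR (0.49), PRSS23 (0.41) and KLK1 (−0.40) kept their direction within 2-fold. KLK11 (0.10) and SERPINA1 (0.67) changed direction. In all 30 of the 76 measured members changed direction, most of them close to 0. Among them were SERPINF1 (−1.48), SERPINB1 (0.33), SERPINI1 (0.71), PLAT (−0.69), SPINT1 (0.44), KLK7 (−0.36) and SERPINB7 (−0.33). How many of all genes changed direction was not counted, so the members' number has no share to stand beside. The local background beside the KLK11 spot was 99.4 on the CDR1AS array and 418 on the control array, while the spot had 138 on the CDR1AS array and 437 on the control array. For SERPINA1 it was 271 on the CDR1AS array and 913 on the control array, where it was brighter than the spot itself. ST14 kept nearly the same ratio (−0.93), while TMPRSS3 had −0.01.

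**Figure D5:**
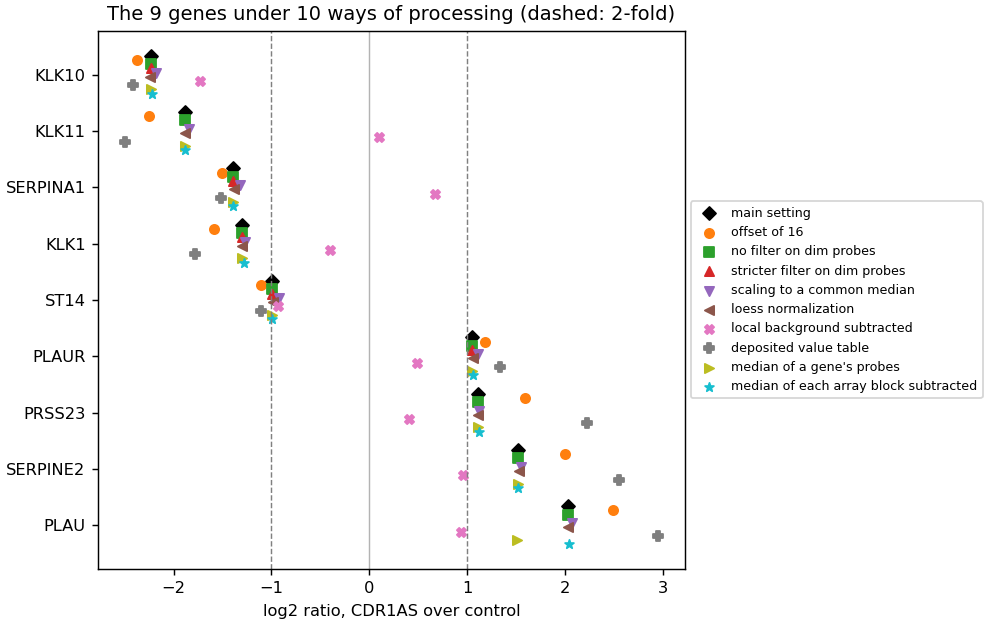
Log2 ratio, CDR1AS over control, of the 8 members past 2-fold and ST14 under the main setting and 9 alternatives, with dashed lines at 2-fold. Values with the local background subtracted lie apart from the rest, the median over probes gives PLAU a narrower ratio (1.52), and the deposited table and the smaller offset give wider ratios for the dim genes.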

How the data were processed

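Total RNA of SW620 cells was hybridised to 2 one-colour arrays, 1 per group, after Trizol extraction, amino allyl amplification and Cy5 coupling, per the labels' protocols. The authors deposited, per the file headers, a median intensity per spot at 635 nm from 3 scanner gains, and the headers do not say how the gains were joined. The deposited value table held, per array, a straight line of that intensity (largest residual 0.0559), equal to 0 near the blank level, with both medians at 25, on a linear scale without centring. Its values near the blank level were empty.

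Of 24460 gene probes, 1 was flagged and left out. The intensities were corrected with limma 3.58.1 in R 4.3.3 (normexp without local background, offset 50), quantile normalized and put on a log2 scale. A gene was read from its brightest probe and kept where above background (blank mean plus 2 SD, 384 blanks) on at least 1 array. Where only 1 array was above background, the other was floored at the lowest value above background there, unless its own was higher, and the fold is a bound. Repeated positive-control spots had log2 SDs between 0.10 and 0.24 within an array, and their means differed between arrays by 1.08-fold and 1.48-fold. The number of arrays limits the precision.

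Symbols came from the platform's annotation. All 91 member genes matched RefSeq by gene identifier, and promoters were found for 7 of the 8 members past 2-fold. Array blocks (24) had median ratios between −0.02 and 0.01. Named genes were members past 2-fold, the extremes of each family, the 4 brightest of each family, those above background on 1 array and a fixed set, some of which were not analysed here. Any other gene named was chosen after its values were seen, for its role, its place or its values. Members and lists were chosen with earlier results of these data known. The steps were tested on simulated data. Another 9 ways of processing, 1 of them chosen after seeing the data, are described in the closing section.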

Additional observations from a re-analysis of the deposited data

How the results depend on the processing

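Of the 8 members past 2-fold, 8 stayed past it in the same direction with an offset of 16, with no filter on dim probes, with scaling to a common median, with loess, in the deposited value table, with a median over each gene's probes and with the median of each array block subtracted, the last added after seeing the data. Several of these settings could hardly end a call. All 8 were above background on both arrays, so dropping the filter could not change their ratios. Only PLAU of the 8 has another probe, so the median over probes could change PLAU alone. The offset of 16 and the deposited table compress folds less than the main setting, which widens them. With the stricter filter (2 times the limit on both arrays), 25 members were left, of which 1 was 2-fold higher and 3 lower. KLK11, PLAU, SERPINE2 and PRSS23 were dropped because they were dim on 1 array. With the local background subtracted, 2 members were 2-fold higher and 3 lower. KLK11 (0.10) and SERPINA1 (0.67) then reversed, and 1 of the 8, KLK10, remained past 2-fold. The deposited value table gave 9 members 2-fold lower. Over all genes, 228 were higher and 172 lower with an offset of 16. They were 75 higher with the stricter filter, 748 and 548 with the local background subtracted, and 544 and 369 in the deposited value table. With the stricter filter few genes were left per family. The kallikrein median was then −0.28 over 5 genes and the PRSS median 0.23 over 4. For plasminogen activation it was 0.56 over 2 genes, PLAUR and PLAT. The plasminogen activation median was 0.49 with the local background subtracted and 1.34 in the deposited value table, where the kallikrein median was 0.24. Apart from the genes dropped, the causes of these shifts were not tested. No paired analysis was possible because each group had 1 array. Folds of spots close to the limit are poorly determined.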
